A study of Saccharomyces cerevisiae with 2 samples.

Results

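Peroxisomes are small organelles in which yeast cells break down fatty acids. Each turn of beta-oxidation shortens an activated fatty acid and releases acetyl-CoA, and in yeast the whole pathway runs in peroxisomes and not in mitochondria. The proteins that build the organelle, the peroxins (PEX genes), bring enzymes across its membrane, insert its membrane proteins and set its size and number. In yeast these genes are known to be repressed by glucose and induced by fatty acids such as oleate. Genes were taken by name: every S. cerevisiae gene whose platform symbol was PEX with a number, and 14 named genes of matrix enzymes and membrane transporters. This gave 39 of the 5449 measured genes, 25 peroxins and 14 genes of matrix enzymes and transporters, each with 1 probe set. PEX9 and PEX35 had no probe set named for them and were not analysed here.

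The study hybridized 2 GeneChip Yeast Genome 2.0 arrays (Affymetrix), 1 with RNA from cells in DR medium (0.5% glucose) and 1 with RNA from cells in AL medium (2.0% glucose). Both cultures were BY4742, a haploid wild-type laboratory strain of mating type alpha that carries his3Delta1, leu2Delta0, lys2Delta0 and ura3Delta0, and both grew for 12 hours at 30°C in 1% yeast extract with peptone, from a starting OD600 of 0.01 to a final OD600 of 0.85 to 0.99. The deposited signals are linear intensities, already normalized by a service laboratory for the authors. Conditions follow the submitters' labels, and the ratios made with them run opposite to those of the study. The study lists peroxisome among the terms associated with genes up-regulated under DR, whereas the members below were mostly higher on the AL-labelled array. Each array is therefore named by its label, and an exchange of the labels would turn every sign below.

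Each condition had 1 array. The differences below therefore have no replicate check and no test, and their precision is limited by this number. An array measures a whole culture, so a few cells with many copies of a transcript and many cells with few copies cannot be told apart. Background was set on each array by the brightest of 9 genes that BY4742 lacks or that alpha cells keep silent, which was STE6 on both, at 129.4 on the DR-labelled array and 281.6 on the AL-labelled array. The deleted URA3 had signals of 1.20 and 9.10, LYS2 had 4.20 and 8.30 and LEU2 had 24.6 and 17.0. Of the 9 genes, 5 were past 2-fold higher on the AL-labelled array and 1 on the DR-labelled array, with a median log2 ratio of −1.06, so that these genes also leaned toward the AL-labelled array, and the part of this in the results on dim genes was not tested. The 4 markers of alpha cells lay between 5174 and 6278 on the DR-labelled array and between 222.6 and 1217 on the AL-labelled array. The lowest of these, MF(ALPHA)2 on the AL-labelled array, was under background, and the markers were from 5.16-fold to at least 18.4-fold higher on the DR-labelled array, the opposite direction to the peroxisome genes, and their part in the results was not tested. The log2 ratio (DR-labelled over AL-labelled) had a median of −0.12 over all genes.

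Peroxisome genes were mostly brighter on the AL-labelled array, and the matrix enzymes and transporters differed more between the arrays than the peroxins. Past 2-fold, the threshold of the study's methods, 23 of the 39 genes were higher on the AL-labelled array and 0 on the DR-labelled array, whereas of all genes 24.3% were called in the first direction and 20.5% in the other. Of the 14 genes of matrix enzymes and transporters, 12 were past 2-fold (85.7%), with a median log2 ratio of −3.07. Of the 25 peroxins, 11 were past 2-fold (44.0%), with a median of −0.76. Both the share and the median were nearer 0 than those of the 9 deleted or silent genes. The median of the matrix enzymes and transporters minus that of the peroxins was −2.31 on the log2 scale. By sign alone, 37 of the 39 log2 ratios lay below 0, and those of PEX14 (0.13) and PEX34 (0.01) lay above it, the latter turning to −0.09 with the median background signal added to both arrays.

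At 1.5-fold, 12 of the 14 genes of matrix enzymes and transporters and 17 of the 25 peroxins were higher on the AL-labelled array, against 35.7% of all genes, and 0 members were higher on the DR-labelled array, against 29.3%. At 3-fold, 11 and 6 genes of these classes were higher on the AL-labelled array, against 12.7% of all genes, and 0 were higher on the DR-labelled array, against 11.5%. Of the 39 genes, 38 were over background on at least 1 array, 31 of them on both and 7 on the AL-labelled array alone. Among all genes over background on at least 1 array, 23.2% were past 2-fold higher on the AL-labelled array and 21.9% on the DR-labelled array. Among genes over background on both arrays, a filter added after the signals were seen, 8 of 10 matrix enzymes and transporters and 7 of 21 peroxins (33.3%) were past 2-fold higher on the AL-labelled array, beside 26.4% of all such genes, and 0 on the DR-labelled array, beside 15%. The medians of the classes were then −2.50 and −0.73, beside −0.28 for all such genes, and the share of peroxins lay near that of all genes. Raising each signal under background to it makes every gene that is under background on both arrays 2.18-fold higher on the AL-labelled array by construction, since the levels differ. Under it 32.1% and 14.1% of all genes were past 2-fold, and 22 of the 38 peroxisome genes over background on at least 1 array were past 2-fold higher on the AL-labelled array.

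**Figure D1:**
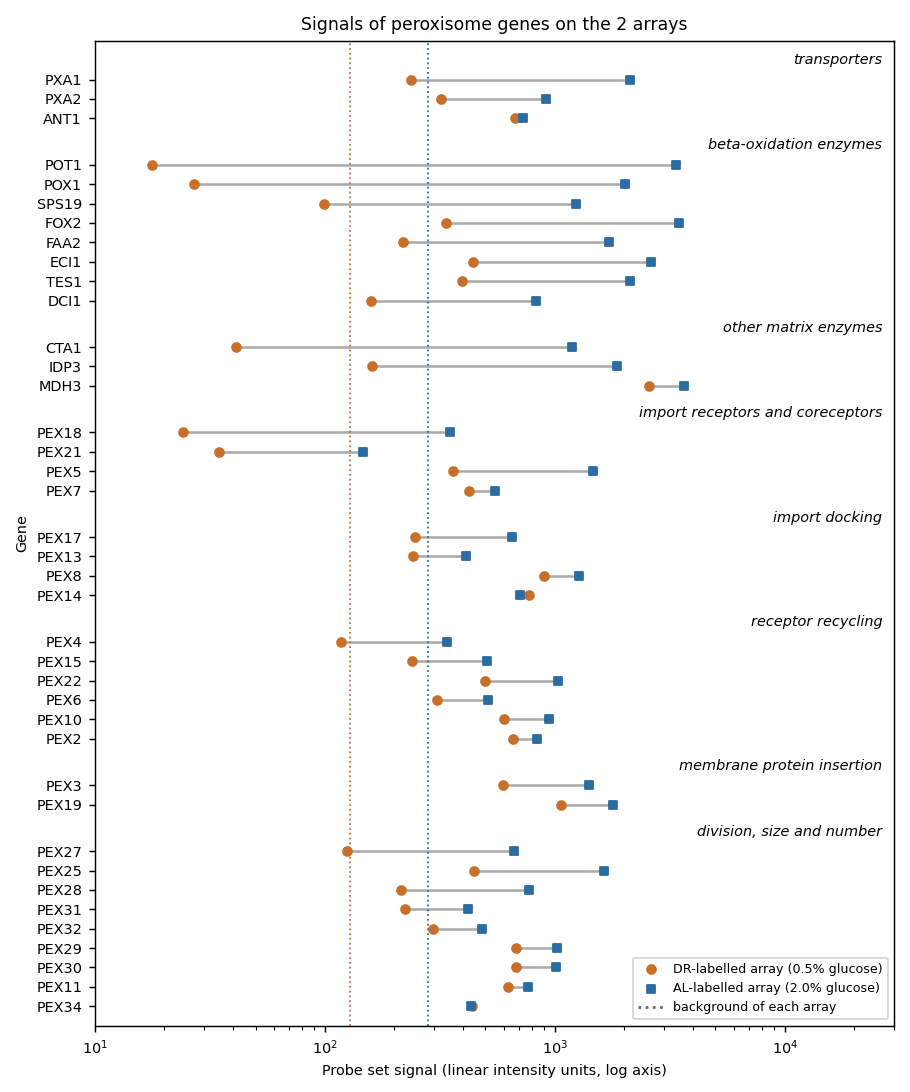
Signals of 39 peroxisome genes on the 2 arrays, grouped by role. The horizontal axis is the probe set signal in linear intensity units on a log axis, circles stand for the DR-labelled array (0.5% glucose), squares for the AL-labelled array (2.0% glucose), and dotted lines mark the background of each array, 129.4 and 281.6. In the genes of beta-oxidation enzymes every square lies far to the right of its circle, while PEX14 and PEX34 have nearly coincident points.

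All 8 genes of beta-oxidation enzymes were past 2-fold, each at least 5.26-fold higher on the AL-labelled array, and their median log2 ratio was −3.17, with a mean of −3.90. Among the 5 of them over background on both arrays the median was −2.57. In the order of the pathway, FAA2 (YER015W), the acyl-CoA synthetase that activates fatty acids inside the peroxisome, had a signal of 219.2 on the DR-labelled array and 1724 on the AL-labelled array, a 7.87-fold difference. POX1 (YGL205W), the acyl-CoA oxidase that begins each turn and gives off hydrogen peroxide, had 27.1 and 2018. FOX2 (YKR009C), the multifunctional enzyme of the hydration and second oxidation steps, had 335.4 and 3461, a 10.3-fold difference. POT1 (YIL160C), the thiolase that releases acetyl-CoA, had 17.7 and 3358. The POX1 and POT1 signals on the DR-labelled array lay under background, so their measured ratios of 74.5 and 189.7 are uncertain in size. Against the background level, POX1 was at least 15.6-fold and POT1 at least 25.9-fold higher on the AL-labelled array.

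The auxiliary enzymes, which allow unsaturated fatty acids to enter the cycle, and the thioesterase TES1 stood the same way. SPS19 (YNL202W), the dienoyl-CoA reductase, had 98.8 on the DR-labelled array, under background, and 1234 on the AL-labelled array, at least a 9.53-fold difference. ECI1 (YLR284C), the enoyl-CoA isomerase, had 442.5 and 2626, a 5.93-fold difference. DCI1 (YOR180C), a relative of ECI1, had 158.2 and 832.7, a 5.26-fold difference that was the smallest of the 8 genes. TES1 (YJR019C), a peroxisomal acyl-CoA thioesterase, had 394.2 and 2130, a 5.40-fold difference. SPS19 was the only one of these 4 genes with a signal under background.

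Of the other matrix enzymes, CTA1 and IDP3 stood with the beta-oxidation genes and MDH3 did not pass 2-fold. CTA1 (YDR256C), the catalase that removes the hydrogen peroxide made by the oxidase, had 41.1 on the DR-labelled array, under background, and 1185 on the AL-labelled array. Against background it was at least 9.16-fold higher on the AL-labelled array. IDP3 (YNL009W), the isocitrate dehydrogenase that supplies NADPH for the reductase step, had 160.1 and 1871, both over the level taken for background on the array concerned, an 11.7-fold difference. MDH3 (YDL078C), the malate dehydrogenase that takes part in reoxidizing NADH in the organelle, had 2563 and 3637, a 1.42-fold difference. MDH3 was therefore bright on both arrays, and its log2 ratio of −0.50 lay apart from the −3.55 of IDP3 and the −4.85 of CTA1.

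Among the 3 transporters, the genes of the fatty acid importer differed from each other and the nucleotide carrier was close to equal. PXA1 (YPL147W) and PXA2 (YKL188C) encode the subunits of the ABC transporter that brings long-chain acyl-CoA into the peroxisome. PXA1 had a signal of 237.6 on the DR-labelled array and 2135 on the AL-labelled array, an 8.99-fold difference. PXA2 had 319.0 and 916.3, a 2.87-fold difference. ANT1 (YPR128C), which carries ATP into the organelle in exchange for AMP so that FAA2 can activate fatty acids, had 669.4 and 729.1, a 1.09-fold difference. The log2 ratio of ANT1, −0.12, lay at that of the median gene, and its sign turned with quantile normalization (0.12) and with the removal of the trend on signal (0.20).

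**Figure D2:**
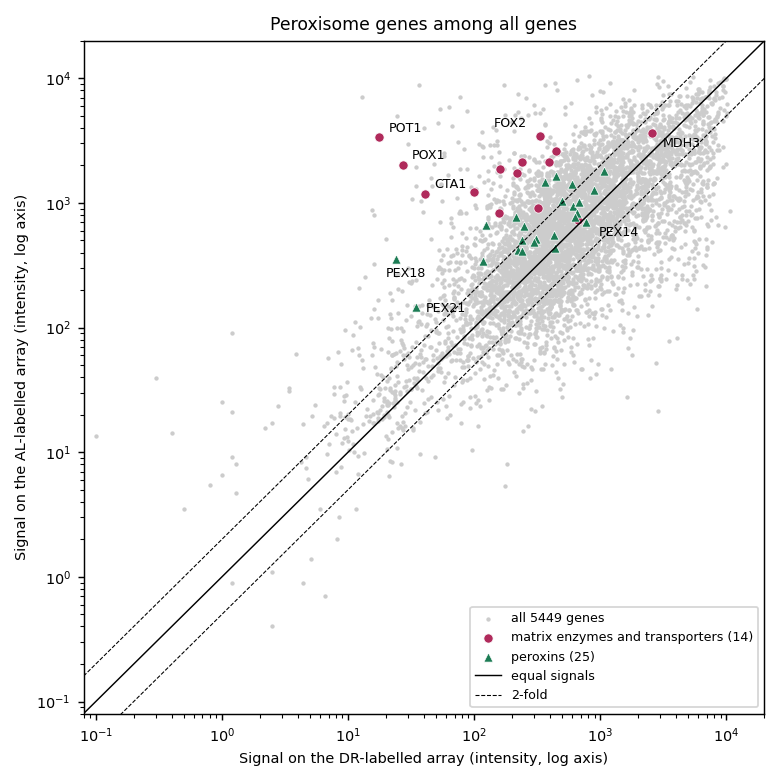
Signal on the AL-labelled array (vertical, intensity, log axis) against signal on the DR-labelled array (horizontal, intensity, log axis) for 5449 genes in grey, with 14 genes of matrix enzymes and transporters as circles and 25 peroxins as triangles. The solid line marks equal signals and the dashed lines 2-fold, and 23 peroxisome genes lie above the upper dashed line and 0 below the lower one.

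Peroxins of the import machinery recognise enzymes in the cytosol, dock them at the membrane and return the receptors for another round. Of 14 such genes, 7 were past 2-fold higher on the AL-labelled array (50%, beside 24.3% of all genes), with a median log2 ratio of −0.91. These 7 include PEX21, which was under background on both arrays. The receptors PEX5 and PEX7 differed in ratio. PEX5 (YDR244W), the receptor of most matrix enzymes, which carry a signal at their C-terminal end, had 362.9 on the DR-labelled array and 1468 on the AL-labelled array, a 4.05-fold difference. PEX7 (YDR142C), the receptor of the few enzymes with an N-terminal signal, the POT1 thiolase above all, had 425.9 and 551.5, a 1.29-fold difference. Its coreceptors PEX18 and PEX21, which share their role, had low signals. PEX18 (YHR160C) had 24.2 on the DR-labelled array, under background, and 352.1 on the AL-labelled array, at least a 2.72-fold difference against background. PEX21 (YGR239C) had 34.8 and 146.3, under background on both arrays, and was the only one of the 39 genes in that state, so that no fold is given for it although it enters the count of 23. Without it, 10 of 24 peroxins were past 2-fold.

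The docking genes had a median log2 ratio of −0.63, beside −2.04 for the receptors and coreceptors. Among the latter over background on both arrays, PEX5 and PEX7, the median was −1.19. PEX7 by itself, at −0.37, lay nearer 0 than the docking median. PEX17 (YNL214W) had 246.5 on the DR-labelled array and 650.1 on the AL-labelled array, a 2.64-fold difference. PEX13 (YLR191W), a membrane protein that binds the receptors, had 241.6 and 410.3, a 1.70-fold difference. PEX14 (YGL153W), the main docking protein and part of the import pore, had 775.7 and 706.6, a 1.10-fold difference in the other direction. PEX8 (YGR077C), an inner peroxin that joins the docking and ubiquitin ligase complexes, had 895.3 and 1271, a 1.42-fold difference. PEX17 was thus the only one of these 4 genes past 2-fold.

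The recycling proteins mark the receptors with ubiquitin and pull them back out of the membrane. Of the 6 measured genes, 3 were past 2-fold higher on the AL-labelled array (50%, beside 24.3% of all genes). PEX4 (YGR133W), the ubiquitin-conjugating enzyme, had 118.1 on the DR-labelled array, under background, and 339.7 on the AL-labelled array, at least a 2.63-fold difference. PEX22 (YAL055W), its membrane anchor, had 496.2 and 1036, a 2.09-fold difference. PEX15 (YOL044W), the anchor of the PEX6 ATPase, had 239.3 and 508.6, a 2.13-fold difference. PEX6 (YNL329C), the AAA ATPase that extracts receptors, had 308.1 and 512.6, a 1.66-fold difference. The ubiquitin ligases PEX10 (YDR265W) and PEX2 (YJL210W) lay lower again, PEX10 with 602.1 and 945.1 and PEX2 with 656.7 and 833.7, which are 1.57-fold and 1.27-fold differences. PEX15 and PEX22 were the members nearest above 2-fold, and both fell short of it when the ratios were centred on their median over all genes (−0.97 and −0.94).

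PEX3 and PEX19 bring proteins into the peroxisomal membrane, PEX19 as the soluble receptor and PEX3 as its partner at the membrane. PEX3 (YDR329C) had 598.6 on the DR-labelled array and 1415 on the AL-labelled array, a 2.36-fold difference. PEX19 (YDL065C) had 1066 and 1787, a 1.68-fold difference. Both were well over background on both arrays, and PEX3 came under 2-fold only when the trend on signal was removed (−0.91).

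Of the 9 peroxins of division, size and number, 3 were past 2-fold higher on the AL-labelled array (33.3%, near the 24.3% of all genes), and the median log2 ratio was −0.71. The PEX11 family elongates the membrane before division, and its members did not stand together. PEX11 (YOL147C) had 625.9 on the DR-labelled array and 765.0 on the AL-labelled array, a 1.22-fold difference whose sign turned with the removal of the trend on signal (0.04). PEX25 (YPL112C) had 447.8 and 1633, a 3.65-fold difference. PEX27 (YOR193W) had 124.5, just under background, and 667.1, at least a 5.16-fold difference. PEX34 (YCL056C), which acts with this family, had 438.6 and 434.5, a ratio of 1.01. PEX25 and PEX27 were therefore past 2-fold while PEX11 and PEX34 were near 1.

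The other 5 genes of this role encode membrane proteins of the endoplasmic reticulum and its contacts with peroxisomes, which limit how many peroxisomes a cell holds and how large they are. PEX28 (YHR150W) had 215.3 on the DR-labelled array and 775.9 on the AL-labelled array, a 3.60-fold difference. PEX29 (YDR479C) had 679.6 and 1019, a 1.5-fold difference. PEX28 alone of these 5 genes was past 2-fold. PEX30 (YLR324W) had 681.6 and 1009, PEX31 (YGR004W) had 223.3 and 421.3, and PEX32 (YBR168W) had 296.6 and 484.9. Their ratios of 1.48, 1.89 and 1.63 all lay on the same side, and PEX31 was the gene nearest below 2-fold.

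**Figure D3:**
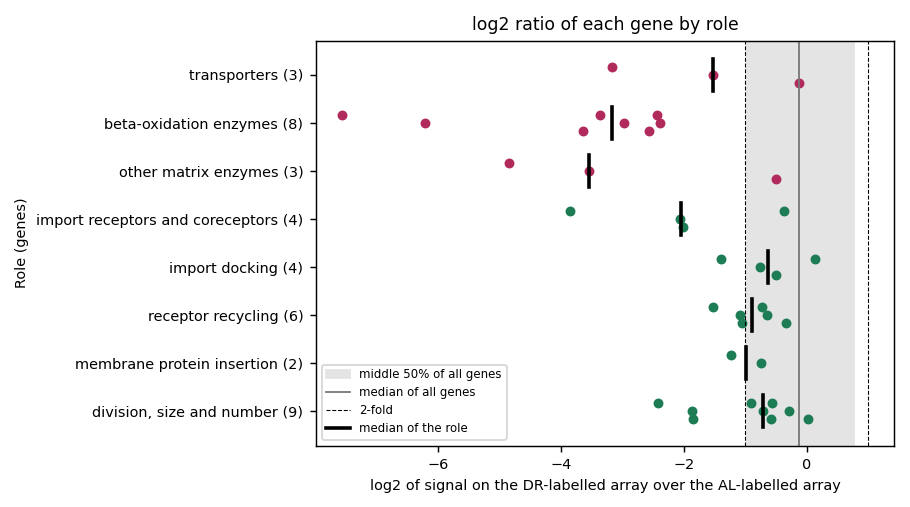
The log2 ratio of the DR-labelled array over the AL-labelled array (horizontal) for each of 39 genes by role, with the number of genes in parentheses. Points are genes, black bars are medians of a role, the grey band holds the middle 50% of all 5449 genes around their median of −0.12, and dashed lines mark 2-fold. The medians run from −3.55 for the other matrix enzymes to −0.63 for import docking, and 0 points lie right of the right dashed line.

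The isoenzymes of the matrix enzymes show how the peroxisomal gene stood beside its relatives in other compartments, each ratio being taken within a gene. For the isocitrate dehydrogenases that make NADPH, the peroxisomal IDP3 (11.7-fold) and the cytosolic IDP2 (134.1 on the DR-labelled array and 2918 on the AL-labelled array, 21.8-fold) were both higher on the AL-labelled array. The IDP2 signal on the DR-labelled array lay just over the background of 129.4, so the size of its ratio is uncertain. The mitochondrial IDP1 stood the other way with 4943 and 1793, a 2.76-fold difference. For the malate dehydrogenases, the cytosolic MDH2, which serves gluconeogenesis, had 1630 and 4094, a 2.51-fold difference, and the mitochondrial MDH1 had 6107 and 4818. MDH3 lay between these relatives in log2 ratio, at −0.50 against −1.33 for MDH2 and 0.34 for MDH1. The cytosolic catalase CTT1, a stress gene, had 1500 and 6801, a 4.53-fold difference in the same direction as CTA1.

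Among acyl-CoA synthetases the peroxisomal enzyme was the only one past 2-fold toward the AL-labelled array. FAA1, the main synthetase for imported fatty acids, had 4127 on the DR-labelled array and 5368 on the AL-labelled array. FAA3 had 601.8 and 685.3. FAA4, which overlaps FAA1 in function, stood the other way from FAA2, with 2562 and 787.8, a 3.25-fold difference. In 5 pairs of related members the partners stood in the same direction, and PEX18 and PEX21 were not compared since PEX21 was under background on both arrays. Of these 5 pairs, PXA1 and PXA2 lay farthest apart, at log2 ratios of −3.17 and −1.52, followed by PEX28 and PEX29 at −1.85 and −0.58. ECI1 and DCI1 were the closest pair, at −2.57 and −2.40.

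**Figure D4:**
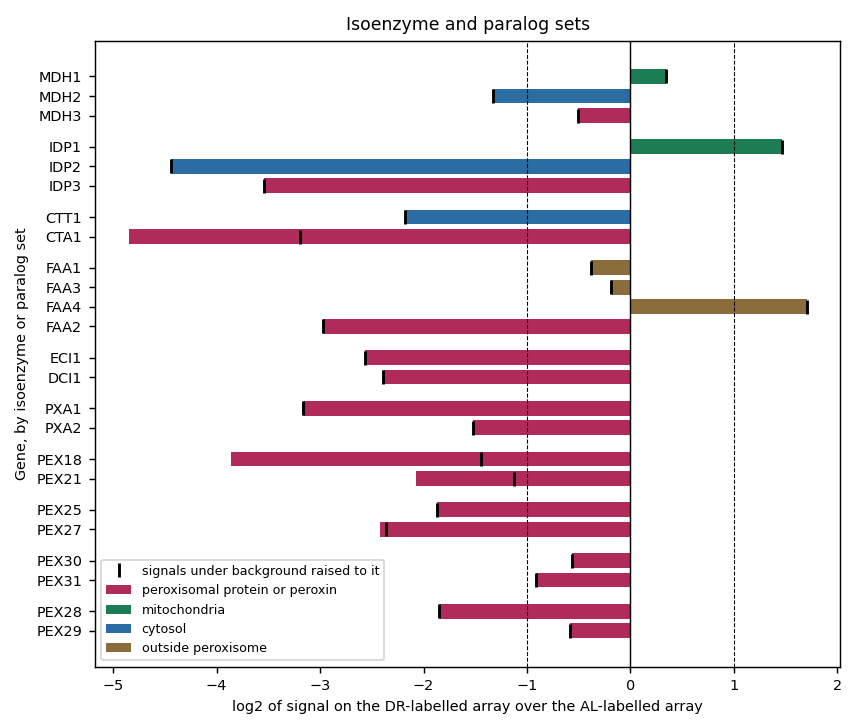
The log2 ratio of the DR-labelled array over the AL-labelled array (horizontal) for isoenzymes and paralogs, 1 bar per gene, coloured by the compartment of the enzyme. Black ticks give the ratio with signals under background raised to it, and dashed lines mark 2-fold. IDP1 and FAA4 point right of 0 past 2-fold while IDP3 and FAA2 point left, and the tick of CTA1 lies at −3.20 instead of −4.85.

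Regulators of these genes were mixed. PIP2 and OAF1 encode the partners of the factor that turns on peroxisomal genes in the presence of oleate, and OAF3 a repressor of that response. PIP2 had a signal of 352.2 on the DR-labelled array and 765.9 on the AL-labelled array, a 2.17-fold difference. OAF1 had 510.6 and 555.3 and OAF3 had 455.5 and 416.6, differences of 1.09-fold each, so that PIP2 alone of the oleate regulators was past 2-fold. ADR1, an activator of genes for the use of ethanol, glycerol and fatty acids when glucose is low, had 300.3 and 1581, a 5.27-fold difference. MIG1, the glucose repressor, had 473.1 and 1999, a 4.23-fold difference in the same direction. SNF1, the kinase that relieves glucose repression, had 1184 and 1815, a 1.53-fold difference. Thus 3 of 6 regulators were past 2-fold higher on the AL-labelled array and 0 on the DR-labelled array, beside 24.3% and 20.5% of all genes, with a median log2 ratio of −0.87.

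Other proteins found in the peroxisomal matrix were mixed. Of 12 measured genes, 4 were past 2-fold higher on the AL-labelled array (33.3%, near the 24.3% of all genes) and 1 on the DR-labelled array (8.33%, beside 20.5%), with a median log2 ratio of −0.71. MLS1, the malate synthase of the glyoxylate cycle, had 47.7 on the DR-labelled array, under background, and 2060 on the AL-labelled array, at least a 15.9-fold difference, and DAL7, another malate synthase, had 231.4 and 741.6. LYS1, the last enzyme of lysine synthesis, had 780.7 and 501.8. STR3, a cystathionine beta-lyase, had 186.6 and 52.9, the latter under background, and since the background there exceeds 186.6 no fold is given for it, although it is the 1 gene counted on the DR-labelled array.

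The genes that activate fatty acids outside the organelle or move acetyl units out of it were mixed. Carnitine carries the acetyl units made by beta-oxidation to mitochondria, and all 4 genes of that shuttle were past 2-fold higher on the AL-labelled array. YAT2, a carnitine acetyltransferase, had 74.3 on the DR-labelled array, under background, and 3061 on the AL-labelled array, at least a 23.7-fold difference. CRC1, the mitochondrial carnitine carrier, had 61.7, also under background, and 1686, at least a 13.0-fold difference. FAT1, an acyl-CoA synthetase for very long chains that also serves fatty acid uptake, stood the other way with 1467 and 279.1, at least a 5.21-fold difference, as did FAA4. Over the 9 genes of this list, 4 were past 2-fold in the first direction and 2 in the other, beside 24.3% and 20.5% of all genes. The remaining 3 were within 2-fold, among them the synthetases FAA1 and FAA3, at log2 ratios of −0.38 and −0.19.

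Of 10 genes for the inheritance, fission and turnover of peroxisomes, 3 were past 2-fold higher on the AL-labelled array and 1 on the DR-labelled array, beside 24.3% and 20.5% of all genes. The 2 highest ratios toward the AL-labelled array belonged to turnover by autophagy. ATG36, the receptor for autophagy of peroxisomes, had 222.7 on the DR-labelled array and 1763 on the AL-labelled array, and ATG11, the adaptor that it binds, had 328.0 and 1041. MYO2, the myosin that carries peroxisomes into the bud, stood the other way with 4327 and 1688, a 2.56-fold difference, and VPS1, the dynamin of peroxisome fission, had 3044 and 2206. The median log2 ratio of this list was −0.54.

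Of the 39 genes, 0 had another member as the next protein-coding gene in the S. cerevisiae annotation (R64). Of 72 measured neighbours, 15 were past 2-fold higher on the AL-labelled array (20.8%) and 8 on the DR-labelled array (11.1%), with a median log2 ratio of −0.41. These shares lay below the 24.3% and 20.5% of all genes. Among 22 neighbours read away from a member across a shared upstream stretch, by the strand in their systematic names, 5 and 2 were past 2-fold. BNR1, beside POT1, had signals of 58.0 and 129.2, under background on both arrays, and CHC1, beside POX1, had 3654 and 2583. Neighbours with large ratios toward the AL-labelled array included ACS1, an acetyl-CoA synthetase beside PEX22, with 221.6 and 5323, and FAT3 beside PXA2, with 92.5 and 632.2. IDP1, the mitochondrial relative of IDP3, lies beside PEX19 and was higher on the DR-labelled array. These neighbours were named after their values were seen.

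As a further check of the probes, 6 probe sets carried the lower-case symbols pex5, pex6, pex7, pex11, pex13 and pex14 and a gene outside the S. cerevisiae table. Their signals ran from 0.3 to 9.60 over both arrays, below the lowest signal of any member, 17.7 for POT1 on the DR-labelled array. They also lay below the 95th percentile of all probe sets named for a gene outside that table, 11.7 on the DR-labelled array and 11.5 on the AL-labelled array. The deleted LEU2, at 24.6 and 17.0, lay over that level on both arrays too, so being over it does not show signal from the gene.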

How the data were processed

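Signals of 10928 probe sets were deposited for 2 arrays, 1 per condition. Per the authors' methods, a service laboratory normalized these linear intensities by the Affymetrix statistical algorithms, whose version, target level and scaling are not given in the sources. Of the probe sets, 7244 carried 1 gene symbol, 1 several and 3683 none in the platform annotation, and 5498 matched an S. cerevisiae gene by gene identifier. Where a gene had several probe sets, the mean of their log2 signals was taken (5449 genes). The signal on each array and the log2 ratio (DR-labelled over AL-labelled) were computed with no test. Background was the brightest of 9 deleted or silent genes on each array. The members and lists were chosen with earlier results of these data known. All members and regulators could be named, and of each other list the 2 highest and 2 lowest ratios over background. Alternatives covered the scaling (median centring, quantile normalization, a lowess trend of span 0.3), low signals, several probe sets of a gene, the threshold and the mean. Planned searches of promoters and proteins were not run, since no sequences were used here. Counting was tested on simulated data. The work used Python 3.11.15 (numpy 2.4.6, statsmodels 0.14.6, pandas 2.3.3, matplotlib 3.10.9).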

Additional observations from a re-analysis of the deposited data

How the results depend on the processing

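The counts of matrix enzymes and transporters past 2-fold (12 and 0, with 8 as the lowest of the former) and the medians of both classes stayed within 1.5 times or 1.5-fold of their values under every alternative run. The count of peroxins higher on the AL-labelled array, 11, was 17 at 1.5-fold and 6 at 3-fold. It was 9 with median centring, quantile normalization or removal of the trend on signal. It was 7 without genes that were not over background on both arrays, an alternative added after the signals were seen. Under this last alternative, 997 of 3778 genes (26.4%) were past 2-fold higher on the AL-labelled array and 568 (15%) on the DR-labelled array. At 3-fold, 690 and 627 of all genes were past the threshold, beside 1326 and 1116 at 2-fold. Raising signals under background to it moved the log2 ratios of POT1 (−4.70), POX1 (−3.96), CTA1 (−3.20), PEX18 (−1.44) and PEX21 (−1.12), of which PEX21, under background on both arrays, took the ratio of the background levels by construction. Over the other alternatives, PEX15, PEX22 and PEX3 came under 2-fold and ANT1, PEX11 and PEX34 changed sign, each under at least 1 of the scaling or background choices. A lower background, added after the signals were seen, changed 0 of them. For beta-oxidation enzymes the mean was −3.90, and the median was −2.57 over background on both arrays, and the median of import receptors and coreceptors was −1.28 with signals raised and −1.19 over background on both arrays. The other matrix enzymes had −2.03 over background on both arrays. Taking the brightest probe set changed no member, since each has 1. With 1 array per condition the error of a ratio is unknown, and values of genes near background are the least certain. No paired analysis was possible because each condition has 1 array.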
